A study of Sus scrofa with 6 samples.

Results

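The heat shock and cytosolic chaperone genes of pig oocytes were examined here. They were the HSP70 and HSP90 chaperones, their J protein and BAG partners, the FKBP isomerases, the chaperonins with prefoldin, and the small heat shock proteins. Members were taken by gene symbol alone. A probe set of the Affymetrix porcine array was included when the platform annotation gave it a single symbol of these families, and the endoplasmic reticulum chaperones HSPA5 and HSP90B1 were left out. The rule found 112 of the 23999 non-control probe sets, for 72 of the 6765 genes named by a single symbol. HSPA1A, HSPA1B, HSPA1L, HSPA4L and AHSA1 were not analysed here.

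Oocytes arrested at metaphase II, ready for fertilization, were compared between prepubertal females (gilts) and adult females (sows), with 3 arrays a group. The labels describe the prepubertal oocytes as developmentally incompetent and the adult oocytes as competent, so the comparison addresses which stored mRNAs differ between eggs of low and high capacity to develop. All oocytes came from follicles of 2 to 6 mm, matured in culture for 42 to 44 h, lost their cumulus cells to hyaluronidase and vortexing, and had a visible first polar body. Poly(A) RNA was amplified in 2 cycles, so what was measured is polyadenylated RNA, mainly toward its 3′ end. The labels call the arrays biological replicates but give neither the number of oocytes nor the number of animals behind each one, so p-values reflect only how far these samples spread. A lower signal could come from fewer copies in every oocyte, from fewer oocytes that hold the transcript or from a smaller polyadenylated part of it. The arrays cannot tell these apart.

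Chaperones bind polypeptides that are unfolded or partly folded and keep them from aggregating until they reach their shape or are degraded. HSP70 proteins do so in a cycle of ATP binding and hydrolysis: J proteins hand over the client and trigger hydrolysis, and nucleotide exchange factors such as the BAG proteins reset the cycle. HSP90 takes over late folding steps of kinases, receptors and other clients, while prefoldin delivers actin and tubulin to the ring-shaped chaperonin TRiC. A growing oocyte stores these mRNAs for the period around fertilization, when its own transcription is silent.

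The deposited arrays were not at a common level. Their 2% trimmed mean signals were 131, 105 and 113 in prepubertal replicates 1, 2 and 3, against 160, 121 and 140 in adult replicates 1, 2 and 3. Signals below are therefore quantile-normalized, and the main counts and part of the gene results are set beside the fit to the values as deposited. A difference given without a deposited value holds for the quantile-normalized setting only. Differences are prepubertal minus adult on the scale of log2(signal + 16), which understates the change of dim probe sets. Over all 12000 tested probe sets the median difference was −0.01 after quantile normalization and −0.20 as deposited. The shift between the settings is a median and varied by gene: HSPE1 differed by −0.05 after quantile normalization and −0.09 as deposited, and CCT2 by 0.29 and 0.00. Of 52 named probe sets 10 had the other sign as deposited. Of the 9 oocyte marker genes on the array 8 were above the filter on low values, and their mean log2 signal differed by 0.06 (exact permutation p = 0.5, 2-sided, smallest possible p 0.1). Of the 16 cumulus and granulosa markers 5 were above it. Their summed signal was 388 to 452 on prepubertal arrays and 411 to 423 on adult arrays, and their difference was −0.01 (exact permutation p = 0.9). The 4 blood and immune markers, 1 of them above the filter, differed by −0.36 (exact permutation p = 0.2), and by −0.47 as deposited at the smallest possible p of 0.1 (exact permutation). Their summed signal was 184 to 389 on prepubertal arrays and 249 to 401 on adult arrays, and their part in the chaperone values was not tested. The 5 theca markers differed by −0.06 and the 3 endothelial markers by 0.09 (exact permutation p = 0.6 for both).

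No chaperone gene differed between prepubertal and adult oocytes past an adjusted p of 0.05. Of the 112 probe sets 88, for 63 genes, reached the filter, which asked for a mean log2 signal at or above the median of the array. None of the 88 passed in limma, where 0.117% of all tested probe sets did, and the lowest adjusted p was 0.0784. At an unadjusted p under 0.05 there were 12, with 5 higher and 7 lower in prepubertal oocytes, or 13.6% of the members beside 10.9% of all tested probe sets. As deposited 87 members were tested and 0 passed, beside 0.475% of all probe sets, with 18 at an unadjusted p under 0.05, of which 17 were lower, or 20.7% beside 14.7%. As deposited and without prepubertal replicate 1, 5 members passed, all lower, where 5.14% of all probe sets did.

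The differences were small and ran in both directions. They spanned −1.05 to 0.68 on the log2 scale, with 33 probe sets at higher and 55 at lower values in prepubertal oocytes. Their median was −0.07. Of all 12000 tested probe sets 5872 were higher and 6128 lower. As deposited 15 members were higher and 72 lower, where 3023 of all tested probe sets were higher and 8977 lower. The member median was then −0.29, beside the −0.20 of all probe sets. In 20 of the 88 the 3 prepubertal arrays lay wholly above or wholly below the 3 adult arrays, 7 above and 13 below. That is 22.7% of the members, beside 16.3% of all tested probe sets, of which 7.54% lay above and 8.77% below. As deposited 2 lay above and 22 below, 27.6% beside 18.9%, of which 1.81% lay above and 17.1% below. Replicates lay close together: the median SD within a group was 0.185 among prepubertal and 0.175 among adult arrays on the log2 scale, against 0.233 and 0.201 over all tested probe sets. Members and all tested probe sets were not matched for signal level in this comparison.

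**Figure D1:**
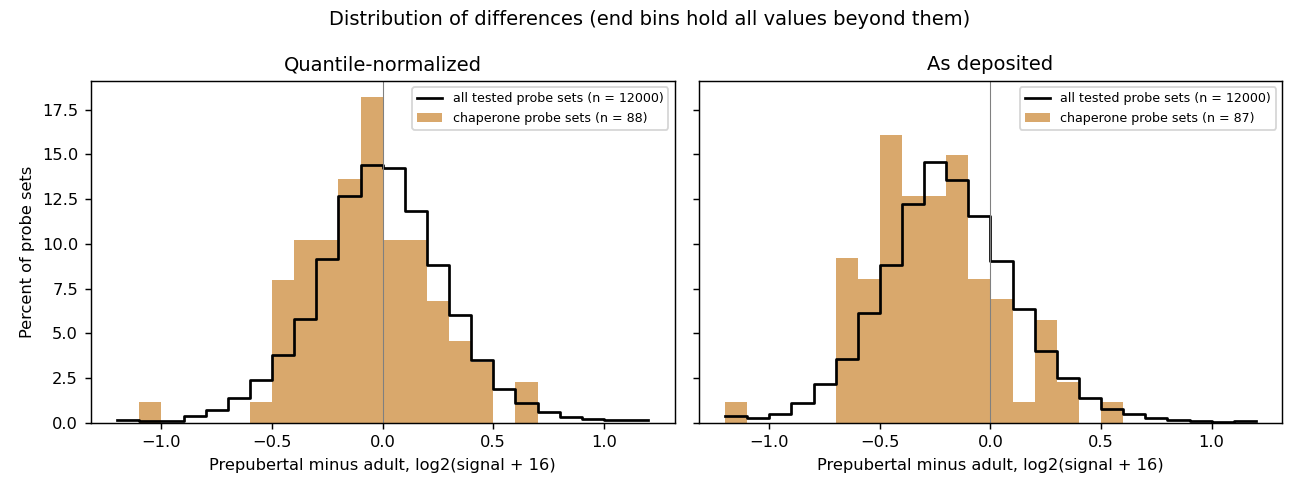
Distribution of the log2 difference, prepubertal minus adult, in percent of probe sets per bin, for the tested chaperone probe sets (filled) and for all 12000 tested probe sets (line). The left panel shows quantile-normalized values, where the chaperone median was −0.07, and the right panel the values as deposited, where both distributions sit lower, with medians of −0.29 and −0.20.

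Role by role, the medians lay on both sides of 0 after quantile normalization, from −0.23 to 0.14, as the plot of differences by role shows. The HSP90 group had a median of −0.23, the small heat shock proteins −0.21, the J proteins −0.15, HSP60 with HSP10 −0.14, the BAG proteins −0.11 and the HSP70 group −0.06. TRiC with prefoldin had a median of 0.01 and the other FKBP isomerases of 0.14. As deposited every one of these medians was lower, and only that of the FKBP isomerases, at 0.02, lay above 0.

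**Figure D2:**
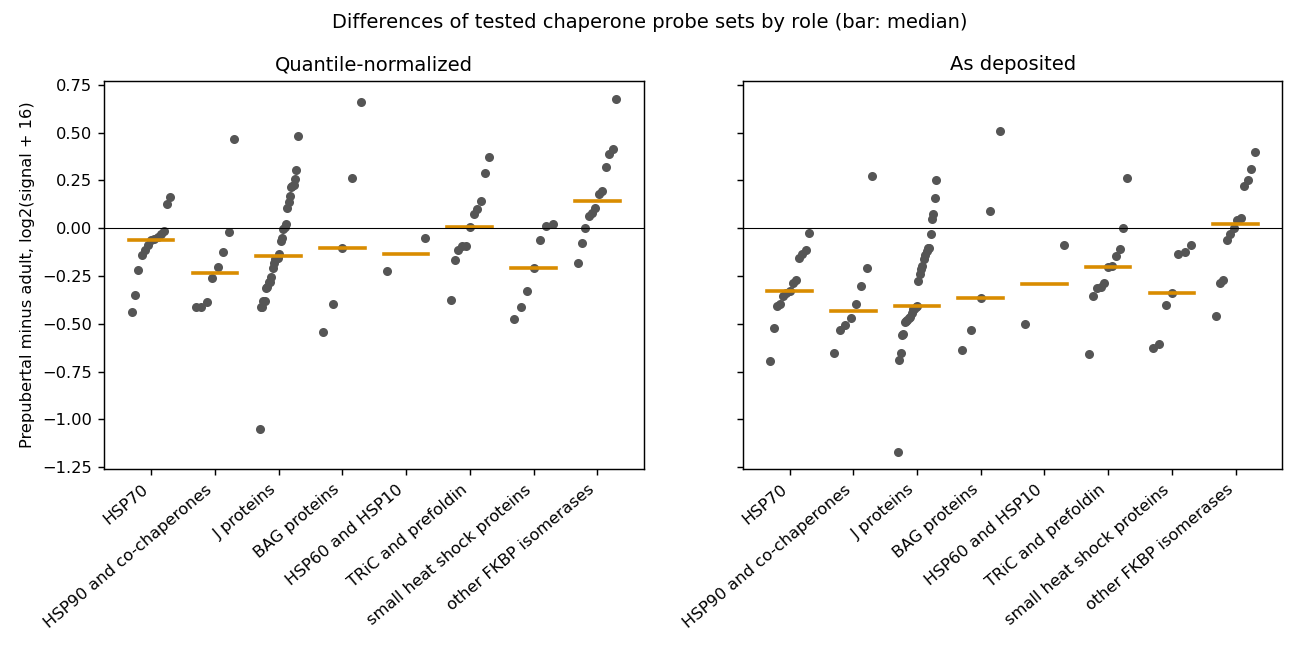
Log2 difference, prepubertal minus adult, of each tested chaperone probe set (points) and the median of each role (bars), quantile-normalized on the left and as deposited on the right. Most role medians are below 0 on the left, and they run from −0.23 for HSP90 and its co-chaperones to 0.14 for the other FKBP isomerases. All role medians are lower on the right.

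The HSP70 group held 13 tested probe sets of 8 genes, of which 2 had higher and 11 lower values in prepubertal oocytes. HSPA8, the constitutive cytosolic HSP70, was measured by 4 probe sets. The brightest gave 735, 789 and 587 in prepubertal oocytes, against 678, 838 and 675 in adult oocytes. The arrays of the groups were intermixed, with a difference of −0.06 and a 95% interval of −0.38 to 0.27 (adjusted p = 0.922). The other 3 HSPA8 probe sets differed by −0.22, −0.09 and −0.06, all with overlapping groups. As deposited the 4 differences lay between −0.40 and −0.33.

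HSPA9 encodes mortalin, the mitochondrial HSP70 that pulls imported proteins through the inner membrane. One of its probe sets gave 275, 217 and 239 in prepubertal oocytes, against 368, 351 and 289 in adult oocytes. All prepubertal arrays lay below all adult arrays, at 244 ± 29.6 against 336 ± 41.7 (SD, n = 3 each, also below). The difference of −0.44 (SE 0.16, 95% interval −0.79 to −0.09) did not pass the threshold (adjusted p = 0.35). The other tested HSPA9 probe set, whose name marks it as able to bind more than 1 transcript, gave 3235, 3670 and 3295 in prepubertal oocytes, against 3442, 3995 and 3820 in adult oocytes. These groups overlapped and differed by −0.14 (adjusted p = 0.626). As deposited both probe sets were free of overlap, at −0.70 (adjusted p = 0.204) and −0.40 (adjusted p = 0.242).

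HSPH1 belongs to the large HSP110 class, which exchanges nucleotide on HSP70. Its signals were 116, 76.6 and 72.5 in prepubertal oocytes, against 103, 133 and 110 in adult oocytes. Prepubertal replicate 1 lay within the adult range and the others below it, with a difference of −0.35 (adjusted p = 0.556). As deposited the groups did not overlap and differed by −0.52 (adjusted p = 0.317). HSPA4, of the same class, had 90.5, 100 and 81.0 in prepubertal oocytes, against 85.7, 86.2 and 66.2 in adult oocytes. The groups overlapped, with a difference of 0.16 after quantile normalization and −0.02 as deposited. The dimmer tested HSPA4 probe set differed by −0.05.

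HSPA14, an HSP70 that works with DNAJC2 at the ribosome on emerging chains, gave 2995, 2495 and 2625 in prepubertal oocytes, against 2359, 2162 and 2944 in adult oocytes. The highest values came from 1 array of each group, and the difference was 0.13 (adjusted p = 0.74), or −0.14 as deposited. HSPA2, known from the mouse for its need in spermatogenesis, gave 241, 328 and 368 in prepubertal oocytes, against 278, 325 and 333 in adult oocytes. The prepubertal arrays enclosed the adult ones, with a difference of −0.01 and a 95% interval of −0.39 to 0.37. HSPA12A, a distant relative, and HSPA6, a stress-induced form so similar to other HSP70 genes that its probes may share their transcripts, differed by −0.12 and −0.03. HSPA13 had both probe sets below the filter.

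HSP90 and its co-chaperones held 8 tested probe sets of 4 genes, 1 with a higher and 7 with lower values in prepubertal oocytes. HSP90AB1, the constitutive cytosolic HSP90, gave 1576, 1294 and 1197 in prepubertal oocytes, against 2220, 1753 and 1415 in adult oocytes. Only prepubertal replicate 1 and adult replicate 3 crossed, and the means were 1355 ± 197 against 1796 ± 404. The difference was −0.39 (SE 0.16, 95% interval −0.74 to −0.04, adjusted p = 0.403), and −0.65 as deposited (adjusted p = 0.211).

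HSP90AA1, the stress-responsive cytosolic HSP90, had 5 tested probe sets that did not point one way. The brightest gave 2692, 3270 and 2906 in prepubertal oocytes, against 3418, 3283 and 3486 in adult oocytes. All prepubertal arrays lay below the adult ones, prepubertal replicate 2 only just, with a difference of −0.20 (SE 0.10, adjusted p = 0.487). Another gave 95.8, 102 and 104 in prepubertal oocytes, against 57.5, 73.6 and 74.8 in adult oocytes. Here all prepubertal arrays lay above the adult ones, with a difference of 0.47 (SE 0.18, adjusted p = 0.379). The remaining 3 overlapped between groups, at −0.41, −0.13 and −0.02. As deposited the opposed pair stayed apart in sign, at −0.47 (adjusted p = 0.203) and 0.27 (adjusted p = 0.585).

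The co-chaperone STIP1 bridges HSP70 and HSP90 for client transfer. It gave 31.1, 42.3 and 17.4 in prepubertal oocytes, against 38.6, 27.5 and 50.6 in adult oocytes, with mixed arrays and a difference of −0.26 (adjusted p = 0.756). FKBP5, an HSP90-bound isomerase of steroid receptor complexes, gave 49.6, 22.6 and 43.2 in prepubertal oocytes, against 51.3, 49.8 and 63.4 in adult oocytes. The groups were apart by a small margin after quantile normalization, at −0.41 (adjusted p = 0.56), and overlapped as deposited. FKBP4, its counterpart in these complexes, was below the filter, with signals between 8.39 and 17.8.

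**Figure D3:**
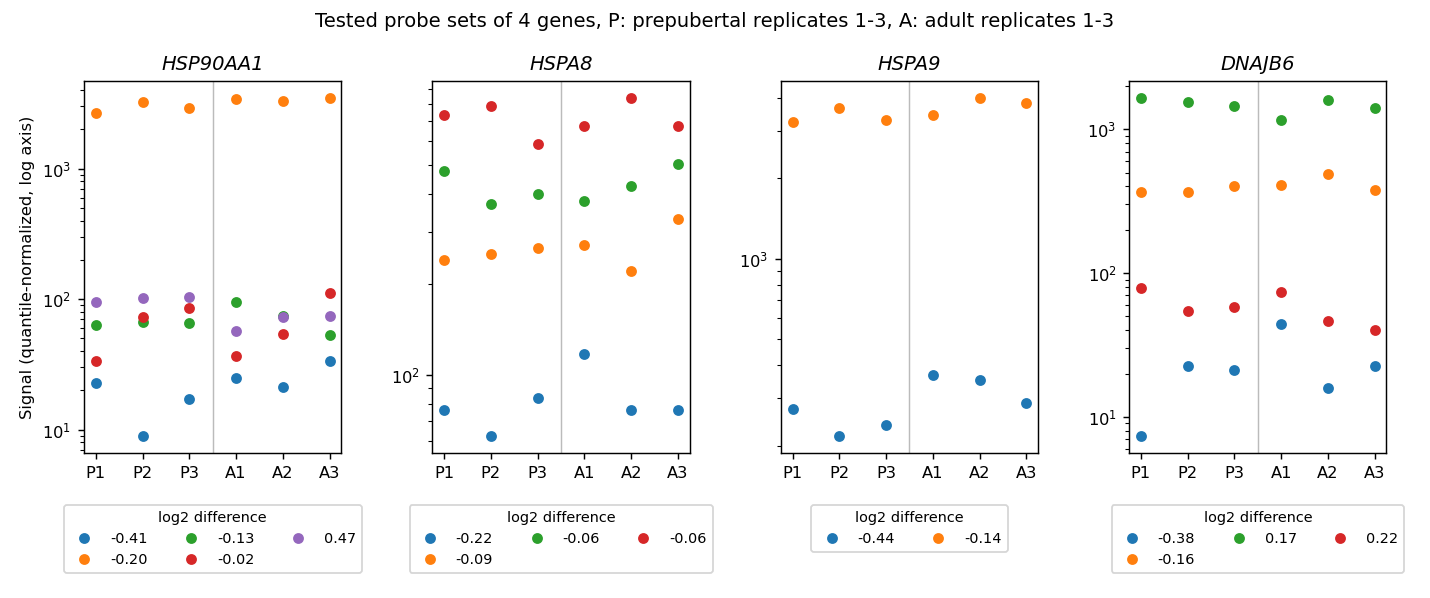
Quantile-normalized signal (log axis) of every tested probe set of HSP90AA1, HSPA8, HSPA9 and DNAJB6 on each array, prepubertal replicates (P) left of adult replicates (A), with 1 colour a probe set and its log2 difference in the legend. The HSP90AA1 probe sets range from −0.41 to 0.47 and those of DNAJB6 from −0.38 to 0.22, while all of HSPA8 and HSPA9 are at or below −0.06.

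Across the chaperones 16 genes had more than 1 tested probe set. In 7 of them all probe sets had differences of one sign, and in 9 the signs were mixed. As deposited 10 agreed in sign and 6 were mixed. Levels of different probe sets cannot be set against each other, since each binds its target with its own efficiency.

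The J proteins, which deliver clients to HSP70 and trigger its ATPase, formed the largest group, with 30 tested probe sets of 19 genes. Values were higher in prepubertal oocytes for 11 probe sets and lower for 19, and as deposited for 4 and 25 of 29. DNAJC6 is auxilin, which recruits HSC70 to strip clathrin from vesicles. Its signals were 138, 152 and 155 in prepubertal oocytes, against 114, 103 and 88.9 in adult oocytes. Every prepubertal array lay above every adult one, at 148 ± 9.13 against 102 ± 12.8, with a difference of 0.48 (SE 0.17, 95% interval 0.11 to 0.85, adjusted p = 0.328). As deposited it was 0.25 with overlap (adjusted p = 0.631).

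DNAJB2, a J protein with ubiquitin-binding motifs, had the largest difference in size of all chaperones, and 1 array carried much of it. Its signals were 93.5, 7.66 and 52.0 in prepubertal oocytes, against 105, 114 and 83.7 in adult oocytes. Prepubertal replicate 2 was near background, prepubertal replicate 3 was below the adult range and prepubertal replicate 1 inside it. The difference was −1.05 (SE 0.42, adjusted p = 0.389), and with each array left out in turn it lay between −1.52 and −0.44. As deposited it was −1.17 with overlap (adjusted p = 0.163). DNAJB4 gave 701, 449 and 541 in prepubertal oocytes, against 613, 833 and 803 in adult oocytes. Prepubertal replicate 1 exceeded adult replicate 1, and the difference was −0.41 (adjusted p = 0.424), or −0.69 without overlap as deposited (adjusted p = 0.203).

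DNAJA1 and DNAJA2 are the general cytosolic J proteins that work with HSPA8. A bright DNAJA1 probe set gave 6120, 5378 and 5378 in prepubertal oocytes, against 6166, 5214 and 4415 in adult oocytes. These overlapped at a difference of 0.11, or −0.10 as deposited. The other gave 184, 271 and 199 in prepubertal oocytes, against 327, 289 and 247 in adult oocytes. Prepubertal replicate 2 fell within the adult range, and the difference was −0.38 (adjusted p = 0.474), or −0.65 without overlap as deposited (adjusted p = 0.219). For DNAJA2 the signals were 415, 386 and 349 in prepubertal oocytes, against 347, 381 and 316 in adult oocytes. The DNAJA2 groups overlapped, at 0.14 after quantile normalization and −0.14 as deposited.

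DNAJB6, a J protein known for suppressing aggregation of polyglutamine proteins, had 4 tested probe sets at −0.38, −0.16, 0.17 and 0.22, all with overlap. The brightest, at 0.17, gave 1652, 1552 and 1451 in prepubertal oocytes, against 1153, 1596 and 1413 in adult oocytes. It differed by −0.12 as deposited. DNAJB1, the classic stress-induced J protein, was below the filter, with 18.7, 12.5 and 2.05 in prepubertal oocytes and 21.3, 8.83 and 6.10 in adult oocytes. Neither group of DNAJB1 signals stood above the other. Among J proteins with other tasks, DNAJC9, which also chaperones histones, differed by −0.00 with a 95% interval of −0.34 to 0.34. DNAJC24, which takes part in diphthamide synthesis, differed by −0.14. The mitochondrial import motor component DNAJC19 differed by −0.28 with overlap, and by −0.41 without overlap as deposited. The spliceosome-associated DNAJC8 had probe sets at 0.02 and −0.31, the second of them without overlap. DNAJB14, a J protein of the endoplasmic reticulum membrane, gave 329, 381 and 343 in prepubertal oocytes, against 407, 395 and 492 in adult oocytes. All its prepubertal arrays were below the adult ones, at −0.28 (adjusted p = 0.509), and its other probe set differed by −0.07. DNAJB9 and DNAJB11, J proteins of the endoplasmic reticulum lumen, had 4 probe sets between 0.01 and 0.30. The remaining J proteins were DNAJA3, DNAJA4, DNAJC2, DNAJC11, DNAJC14 and DNAJC17. Their 9 probe sets overlapped between groups and lay between −0.41 for DNAJC11 and 0.25 for DNAJA4.

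BAG proteins had 5 tested probe sets of 3 genes. BAG6 takes part in the delivery of tail-anchored membrane proteins and in the degradation of mislocalized ones. One probe set gave 90.5, 72.3 and 88.3 in prepubertal oocytes, against 45.9, 55.1 and 40.2 in adult oocytes. Every prepubertal array was above every adult array, at 83.7 ± 9.96 against 47.1 ± 7.48, with a difference of 0.66 (SE 0.20, 95% interval 0.24 to 1.09). It did not pass the threshold (adjusted p = 0.229), and as deposited the difference was 0.51 without overlap (adjusted p = 0.319). The other tested BAG6 probe set pointed the other way, with 52.5, 50.3 and 20.1 in prepubertal oocytes, against 66.7, 47.6 and 55.4 in adult oocytes, at −0.40 with overlap (adjusted p = 0.612).

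BAG3, which with HSPB8 steers aggregates to autophagy, also had a pair of tested probe sets whose differences were of opposite sign. One gave 15.1, 12.7 and 8.37 in prepubertal oocytes, against 27.7, 16.3 and 31.6 in adult oocytes, all prepubertal arrays below, at −0.54 (adjusted p = 0.498). The other gave 59.9, 83.6 and 81.5 in prepubertal oocytes, against 65.4, 65.6 and 48.1 in adult oocytes, at 0.26 with overlap (adjusted p = 0.669). The intervals of these differences ran from −1.14 to 0.05 and from −0.18 to 0.71, so neither sign was settled. All but the highest signal of the dimmer BAG3 probe set lay within the range of the members below the filter. BAG1, a nucleotide exchange factor of HSP70, had 271, 249 and 224 in prepubertal oocytes, against 306, 267 and 235 in adult oocytes. These arrays were intermixed, with a difference of −0.11 after quantile normalization and −0.37 as deposited. BAG5 was below the filter.

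The mitochondrial chaperonin HSP60, encoded by HSPD1, folds proteins after import, and HSP10, encoded by HSPE1, is the lid of its chamber. HSPD1 gave 699, 772 and 641 in prepubertal oocytes, against 800, 780 and 892 in adult oocytes. All prepubertal arrays were below all adult ones, with a difference of −0.22 (SE 0.13, adjusted p = 0.549), and −0.50 as deposited (adjusted p = 0.283). HSPE1 gave 11634, 11501 and 11209 in prepubertal oocytes, against 11935, 11209 and 12474 in adult oocytes. The groups overlapped and the 95% interval of its difference of −0.05 was narrow, from −0.20 to 0.10 (adjusted p = 0.837). As deposited HSPE1 gave 11912, 10986 and 10988 in prepubertal oocytes, against 12356, 11147 and 12486 in adult oocytes. These signals varied less than the levels of the arrays did. Whether so bright a probe set still follows the amount of its transcript was not tested.

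TRiC and prefoldin were measured by 11 tested probe sets of 10 genes, 6 with higher and 5 with lower values in prepubertal oocytes. Subunits of the TRiC ring were not uniform. CCT2 gave 1997, 1732 and 1609 in prepubertal oocytes, against 1392, 1463 and 1497 in adult oocytes, all prepubertal arrays above, at 0.29 (SE 0.11, adjusted p = 0.389). CCT7 gave 385, 389 and 464 in prepubertal oocytes, against 607, 536 and 482 in adult oocytes, all prepubertal arrays below, at −0.38 (SE 0.15, adjusted p = 0.378). As deposited CCT2 differed by 0.00 and CCT7 by −0.66 (adjusted p = 0.205).

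The other ring subunits overlapped between groups on at least 1 probe set. CCT8 gave 4861, 5700 and 4861 in prepubertal oocytes, against 4224, 6006 and 5227 in adult oocytes, at 0.01 with a 95% interval of −0.26 to 0.27. TCP1, the subunit that named the complex, gave 1493, 1418 and 1360 in prepubertal oocytes, against 1390, 1302 and 1185 in adult oocytes. Adult replicate 1 reached into the prepubertal range of TCP1, and the difference was 0.14 (adjusted p = 0.679), or −0.14 as deposited. CCT4 differed by −0.12, and CCT6A by −0.10 on a probe set without overlap and by 0.07 on one with it.

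Prefoldin captures actin and tubulin chains as they leave the ribosome. PFDN4 gave 2329, 2233 and 2326 in prepubertal oocytes, against 2564, 2422 and 2365 in adult oocytes. Its prepubertal arrays were all below, by a difference of no more than −0.09 (adjusted p = 0.752). PFDN5 gave 53.3, 33.5 and 45.8 in prepubertal oocytes, against 40.9, 32.2 and 19.5 in adult oocytes, at 0.37 with overlap (adjusted p = 0.612). PFDN6 and PFDN1 differed by 0.10 and −0.17, both with overlap.

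Small heat shock proteins hold unfolded proteins without using ATP. Their 7 tested probe sets, each of a different gene, had 2 higher and 5 lower values in prepubertal oocytes. HSPB1, which also binds actin filaments, gave 107, 103 and 93.3 in prepubertal oocytes, against 123, 172 and 129 in adult oocytes. All prepubertal arrays were below, at 101 ± 7.19 against 141 ± 26.6, with a difference of −0.41 (SE 0.18, 95% interval −0.81 to −0.02, adjusted p = 0.438). HSPB8, the partner of BAG3, gave 39.8, 37.3 and 26.3 in prepubertal oocytes, against 63.1, 49.0 and 49.9 in adult oocytes. Again all prepubertal arrays were below, at −0.48 (SE 0.22, adjusted p = 0.455). As deposited HSPB1 differed by −0.63 (adjusted p = 0.219) and HSPB8 by −0.60 (adjusted p = 0.274). The muscle-enriched HSPB2, HSPB3, HSPB6 and HSPB7 and the intraflagellar transport protein HSPB11 overlapped between groups. Their differences lay between −0.33 for HSPB6 and 0.02 for HSPB2, on signals of at most 65.3.

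The other FKBP isomerases, which turn peptide bonds before proline and include the targets of the drug tacrolimus, had 12 tested probe sets of 10 genes. Values were higher in prepubertal oocytes for 9 of them and lower for 3, and as deposited for 6 and 6. FKBP1A is the main tacrolimus-binding protein, which also sits on calcium release channels and on type I receptors of the TGF-beta family. It gave 813, 1041 and 892 in prepubertal oocytes, against 637, 524 and 536 in adult oocytes. All prepubertal arrays were above all adult arrays, at 915 ± 116 against 566 ± 61.9, a 1.60-fold difference.

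FKBP1A had the lowest adjusted p of all chaperones. Its log2 difference was 0.68 (SE 0.14, 95% interval 0.37 to 0.98), with an unadjusted p of 0.000392 and an adjusted p of 0.0784, short of the threshold. It passed in a fit with array weights (0.71, adjusted p = 0.0394), where 0.7% of all probe sets passed, and without prepubertal replicate 1 (0.75, adjusted p = 0.0288), where 1.62% of all probe sets passed, and over the omission of single arrays the adjusted p ran from 0.0288 to 0.339. As deposited the groups overlapped and the difference was 0.40 (adjusted p = 0.40). Of its close relative FKBP1B, which stabilizes ryanodine receptors, the signals were 38.2, 38.6 and 44.8 in prepubertal oocytes, against 31.5, 18.9 and 32.4 in adult oocytes. Prepubertal arrays lay above there too, at 0.39 (adjusted p = 0.563), with overlap as deposited.

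FKBP6, a germ cell FKBP known from the mouse for its part in meiosis and piRNA production, gave 2504, 2393 and 2808 in prepubertal oocytes, against 2227, 2823 and 2677 in adult oocytes. Its difference was −0.00 with a 95% interval of −0.25 to 0.25, and −0.29 as deposited. FKBP9, an isomerase of the endoplasmic reticulum, gave 470, 464 and 456 in prepubertal oocytes, against 491, 597 and 499 in adult oocytes. All its prepubertal arrays were below, at −0.18 (adjusted p = 0.662), and it was the most negative of the group. FKBP8, which binds BCL2 at the mitochondrial surface, varied widely, with 54.4, 18.1 and 74.3 in prepubertal oocytes, against 36.1, 37.0 and 17.2 in adult oocytes. The nuclear FKBP3 differed by 0.19 and FKBP15 by 0.32, both with overlap, and the reticulum isomerases FKBP10, FKBP11 and FKBP14 had 5 probe sets between −0.08 and 0.18. FKBP2 and FKBP7 were below the filter.

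**Figure D4:**
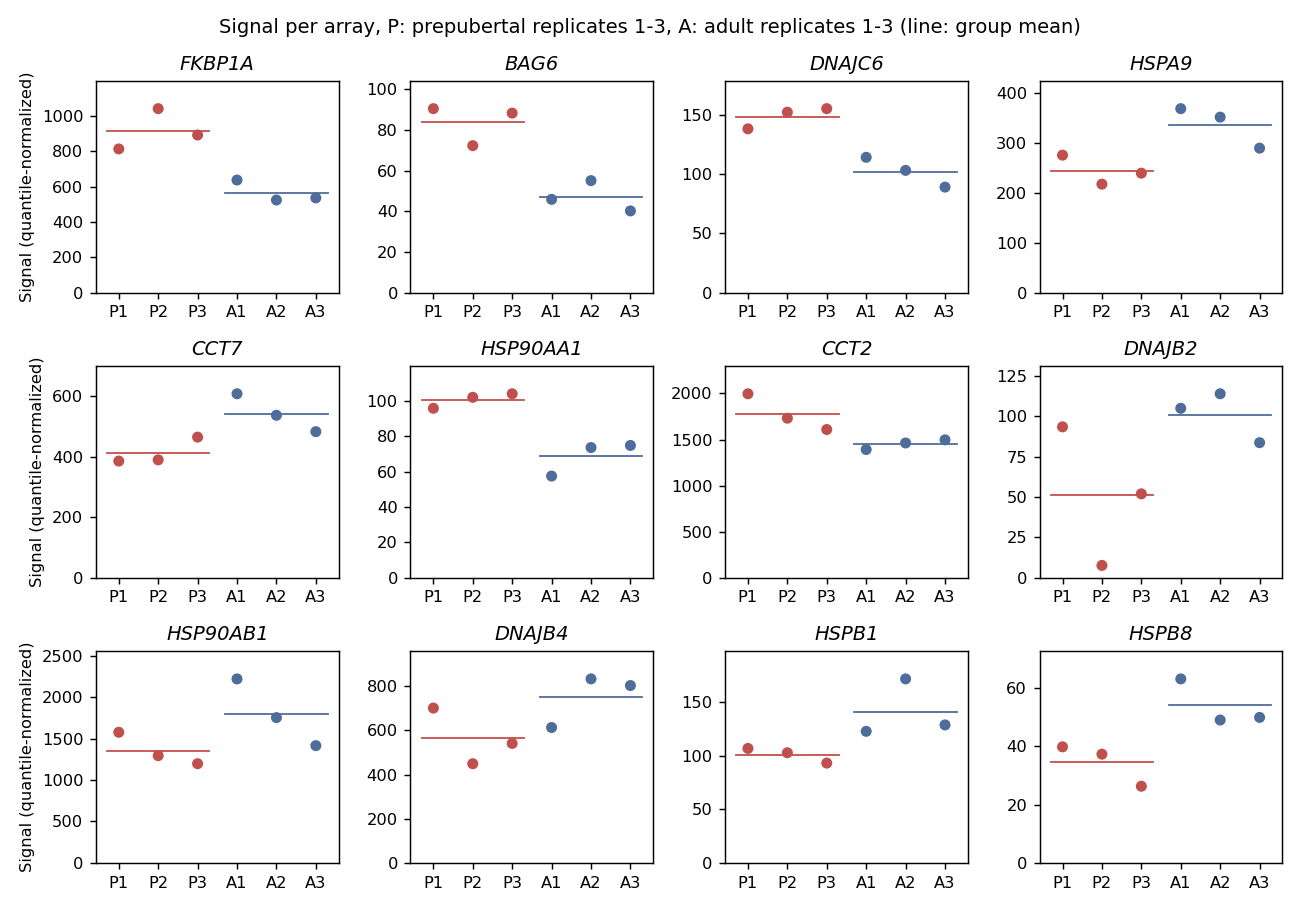
Quantile-normalized signal on each array for the 12 chaperone genes with the lowest unadjusted p, prepubertal replicates (P, red) left of adult replicates (A, blue), with the group mean as a line, the probe set of lowest p where a gene has several, and each axis starting at 0. FKBP1A shows 813 to 1041 in prepubertal oocytes against 524 to 637 in adult oocytes, and in DNAJB2 a single prepubertal array at 7.66 lies far below the rest. For HSP90AA1 and BAG6 the tested probe sets not shown differ in the other direction.

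A total of 24 chaperone probe sets did not reach the filter, among them every probe set of 9 genes: BAG5, DNAJB1, DNAJC3, DNAJC5, FKBP2, FKBP4, FKBP7, HSPA13 and HSPBP1. Their signals lay between 0.371 and 29.0 over all arrays. At that level the arrays cannot show whether the groups differ.

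After quantile normalization, which gives all arrays one distribution, no single array stood apart for the chaperones as a group. Over all tested probe sets the median deviation of an array then lay between −0.002 and 0.015. The median deviation of the 88 probe sets from their own 6-array mean was 0.02, −0.02 and −0.05 in prepubertal replicates 1, 2 and 3, against 0.01, 0.03 and 0.04 in adult replicates 1, 2 and 3. As deposited the same medians were 0.01, −0.22 and −0.15 in prepubertal replicates, against 0.28, −0.04 and 0.15 in adult replicates. The highest of them, in adult replicate 1, came from the array with the highest trimmed mean, and the lowest, in prepubertal replicate 2, from the array with the lowest.

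**Figure D5:**
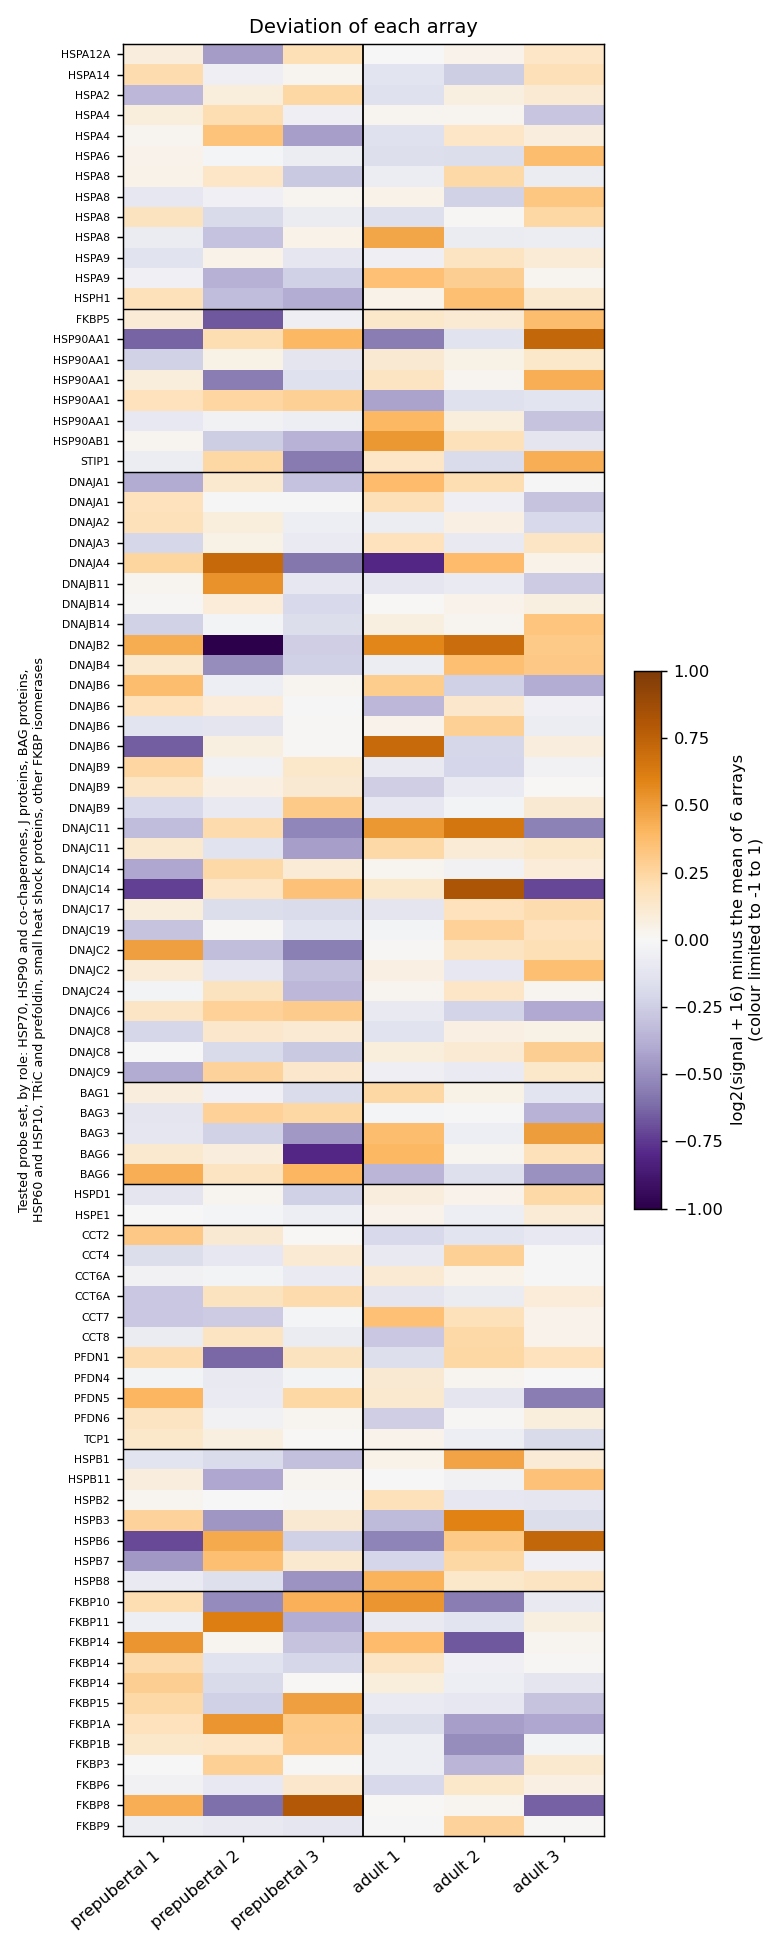
Deviation of each array from the mean of 6 arrays, in log2(signal + 16), for every tested chaperone probe set (rows, labelled by gene and ordered by role, with lines between roles), prepubertal arrays left of adult arrays. Orange is above and violet below the mean, with colour limited to −1 to 1. No array is of one colour throughout, and the darkest cell is prepubertal replicate 2 of DNAJB2.

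Further genes of the folding system were followed beside the families above: heat shock factors, HSP90 and HSP70 adaptors, mitochondrial proteases and reticulum chaperones. Of the genes listed for this, 37 outside those families had a probe set with a single symbol. The list was written with earlier results of these data known, and TOMM34 had already been seen to be lower in prepubertal oocytes. Of its 36 tested probe sets 0 passed after quantile normalization, with 3 at an unadjusted p under 0.05, all lower in prepubertal oocytes. That is 8.33% of the list, beside 10.9% of all tested probe sets. Its median was −0.13, beside −0.01 over all tested probe sets. As deposited 1 passed, beside 0.475% of all probe sets. In that fit 9 had an unadjusted p under 0.05, all lower, or 25% beside 14.7%, and the median was −0.30 beside −0.20. TOMM34, an adaptor of HSP70 and HSP90 in mitochondrial import, gave 25.3, 20.4 and 33.7 in prepubertal oocytes, against 69.2, 69.6 and 67.6 in adult oocytes. All prepubertal arrays were below, with a difference of −1.01 (SE 0.21, adjusted p = 0.0784), and as deposited −1.15, which passed (adjusted p = 0.0301). UNC45A, an HSP90 co-chaperone for myosin, had 24.0, 5.24 and 4.07 in prepubertal oocytes, against 45.2, 25.2 and 39.5 in adult oocytes, at −1.01 (adjusted p = 0.264). HSBP1, a binder of heat shock factor, had 66.0, 51.9 and 59.3 in prepubertal oocytes, against 78.0, 82.7 and 93.6 in adult oocytes, at −0.43 (adjusted p = 0.436). The heat shock factors HSF1 and HSF2 drive transcription of many of these genes. HSF1 gave 14.1, 20.7 and 60.3 in prepubertal oocytes, against 29.9, 14.1 and 7.41 in adult oocytes, at 0.46 with overlap (adjusted p = 0.679). HSF2 gave 22.9, 29.0 and 23.9 in prepubertal oocytes, against 20.3, 23.0 and 1.49 in adult oocytes, at 0.50 with overlap (adjusted p = 0.60). Another HSF1 probe set was below the filter.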

How the data were processed

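The deposited values are linear signal intensity values, 1 per probe set and array, which the authors made with MAS5 per the submitters' processing notes. Neither a version of MAS5 nor a scaling target is given in the sources used here, and detection calls were not used here. All 6 value columns matched a sample, with 0 left unmatched. From the 24123 probe sets 124 control probe sets were left out. The arrays were quantile-normalized and 16 was added before log2. Probe sets whose mean log2 value was at or above the median were tested with limma 3.58.1 in R 4.3.3 (lmFit, eBayes with an intensity trend), 2-sided, with Benjamini-Hochberg adjustment over all 12000 tested probe sets and a threshold of 0.05. Every adjusted p is from limma. The number of arrays limits the precision.

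Symbols came from the platform annotation, which gave 1 symbol to 10069 non-control probe sets, several to 198 (unnamed here) and none to 13732. By Entrez identifier 109 of the 112 members had the same symbol in RefSeq's gene table for Sscrofa11.1, and 3, of CCT6A, were not in it. No coordinates or sequences are given, since the values carry no genome build.

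Members, lists and settings were chosen with earlier results of these data known. Named with values were members past the threshold, the 12 genes with the lowest unadjusted p, the gene with the largest difference in each direction of each role, and a set of central chaperones. A few further members are named by role, chosen after their values were seen. The fit was tested on several simulated data sets with 12000 tested probe sets each. Pooled over them, it recovered 41.2% of 500 probe sets changed by 1 log2 unit and 68.6% of 500 changed by 2, with 26 false calls. Smaller changes were not simulated. Alternatives were other normalizations, added constants, filters, variance models and thresholds, a block for the replicate number, weights for arrays, 1 probe set per gene, current symbols and the omission of each array.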

Additional observations from a re-analysis of the deposited data

How the results depend on the processing

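The count of 0 chaperone probe sets past the threshold was also found as deposited, with trimmed-mean scaling, median centring, added constants of 1 and 64, other filters, no intensity trend, 1 probe set per gene and current symbols. It was 1 with array weights, where 0.7% of all probe sets passed, and 1 at an adjusted p under 0.1, where 0.642% did (FKBP1A both times), 12 at an unadjusted p under 0.05, where 10.9% did, and 0 to 1 when single arrays were left out, with FKBP1A passing without prepubertal replicate 1. Leaving out single arrays as deposited, an alternative chosen after seeing the data, gave 0 to 5. The 5 (HSPA9, HSP90AB1, DNAJB2, DNAJB4 and DNAJC2, all lower in prepubertal oocytes) came without prepubertal replicate 1, where 5.14% of all probe sets passed. The replicate block gave 0 after quantile normalization. As deposited the replicate block gave 11 members, all lower, 12.6% beside 7.65% of all probe sets. The labels do not say whether a number marks a shared batch. Deviations of same-numbered arrays correlated at 0.08, 0.02 and 0.03 after quantile normalization and, in a check added after seeing the data, at 0.11, 0.06 and 0.03 as deposited. Every array correlated best with its own number as deposited but not after quantile normalization, so pairing was not settled. The median member difference of −0.07 was −0.29 as deposited, with or without the replicate block, and −0.20 after median centring, and the medians of all probe sets there were −0.20 and −0.11. Without single arrays it lay between −0.09 and −0.04. The 20 members without overlap became 27 to 34 when an array was left out, which leaves fewer arrays to overlap, or 30.7% to 39.5% of the members beside 23.9% to 33.5% of all probe sets, with 34 without prepubertal replicate 1. In the further list 1 of 36 tested probe sets (TOMM34) passed as deposited, where 0.475% of all probe sets did. With the replicate block as deposited 5 of 36 passed, all lower, where 7.65% of all probe sets did. Both alternatives were chosen for this list after seeing the data. The oocyte markers differed by −0.12 as deposited (exact permutation p = 0.4), and the cumulus markers by 0.0228 with trimmed-mean scaling (exact permutation p = 0.7). For 52 named probe sets up to 17 of these alternatives were counted, without the omission of single arrays as deposited. Of their 866 values 55 had the other sign, none of them past the threshold, and 12 passed where the reported value did not. The cause of these changes was not tested. Signals near background limit what the arrays show of the dim members.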

Other observations

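Some dim chaperone probe sets varied widely between the arrays of a group. DNAJC14 had 3.79, 20.3 and 25.8 in prepubertal oocytes and 20.1, 41.7 and 4.01 in adult oocytes on one probe set, which differed by −0.16. Its other probe set had 25.6, 48.8 and 42.9 in prepubertal oocytes and 40.1, 37.7 and 42.5 in adult oocytes, at −0.05. HSPB6 had 4.44, 29.4 and 12.2 in prepubertal oocytes and 7.01, 25.3 and 38.8 in adult oocytes, at −0.33. DNAJA4 had 22.5, 37.0 and 5.68 in prepubertal oocytes and 2.54, 26.1 and 17.3 in adult oocytes, at 0.25, and was no longer among the tested probe sets as deposited.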
